A study of Columba livia with 16 samples.

Results

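H3K27ac, acetylation of lysine 27 on histone H3, was mapped in embryonic limb buds of 2 domestic pigeon breeds, and 5160 chromatin regions were found in which both limbs of both breeds carried the mark over a similar, narrow width. To obtain them, the 4 deposited peak lists were pooled and peaks that overlapped by at least 1 bp were joined into merged regions. A region was kept when all 4 lists had a peak in it, its merged span was under 8000 bp, and the largest number of bases covered by any list was less than 1.5 times the smallest. The regions were thus chosen by measured values, namely the presence and the width of peaks, and their similar width and their presence in every list are not findings. Of 26456 merged regions, 19.5% met the rule (95% Wilson interval 19.0–20.0%). Of the 9718 regions with peaks in all 4 lists, 53.1% did (52.1–54.1%). These intervals cover counting error only, and neighbouring regions are not independent.

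Forelimb and hindlimb buds came from embryos of the racing homer and the Indian fantail at Hamburger-Hamilton stage 25. The racing homer has scaled feet. The Indian fantail has feathered feet and carries a deletion upstream of the hindlimb gene *Pitx1*. In the expression experiments of the study behind these data, its embryos had derived haplotypes at *Pitx1* and at the forelimb gene *Tbx5*. Each combination of breed and limb had 2 libraries from ChIP and 2 from input chromatin, which makes 16. A limb bud holds several cell types, whose marks are not separated here, and the number of embryos behind a library was not given. A single list per breed and limb combines the replicates: no error between replicates can be given, no test was possible, and the sequencing depth is unknown.

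Nucleosomes at active promoters and enhancers carry H3K27ac, placed there by the acetyltransferases p300 and CBP. Enhancers differ in activity between tissues more than promoters do, so regions acetylated in both limb buds can be promoters of widely used genes as well as enhancers shared by wing and leg. The width of an acetylated region follows the number of adjacent nucleosomes that carry the mark, and very wide regions are often found near genes that specify a cell type or an organ. No annotation of the assembly on which these lists are numbered was used here. Hence no region is assigned to a promoter, enhancer or gene, and positions refer to the numbered scaffolds of the files.

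The lists held 15357 to 22407 peaks, and the racing homer forelimb, racing homer hindlimb, Indian fantail forelimb and Indian fantail hindlimb are given in this order wherever 4 values follow each other. The common narrow regions took up 33.9%, 29.1%, 35.5% and 23.8% of the peaks in these lists. In bases they took up 11.4 of 31.5 Mb, 11.9 of 38.5 Mb, 11.8 of 33.1 Mb and 12.6 of 48.4 Mb. The similar length covered in these regions by the 4 lists follows from the limit on the width ratio and is not a finding. The other regions of all 4 lists comprised 595 of 8000 bp or more, 3142 narrower regions of uneven width in which the hindlimb lists covered more bases, and 821 in which the forelimb lists covered more. A further 3668 regions had peaks in 3 lists, 4880 in 2 lists and 8190 in a single list.

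Most regions of all 4 lists were narrow, and the limit on the ratio of widths removed more of them than the limit on the span. Of the 9718, 9123 (93.9%) were under 8000 bp and 5554 (57.2%) had a ratio below 1.5. The ratio limit selected unequally along the span. Of the regions of all 4 lists under 1000 bp, 872 of 943 (92.5%, Wilson interval 90.6–94.0%) met the rule, against 1342 of 2150 (62.4%) from 1000 to 2000 bp. The share was 49.0% from 2000 to 4000 bp, 47.2% from 4000 to 6000 bp and 52.2% from 6000 to 8000 bp.

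Merged spans ran from 318 to 7980 bp with a median of 2293.5 bp and quartiles of 1239 and 3609 bp. In all, 872 regions (16.9%) were shorter than 1000 bp and 589 (11.4%) were 5000 bp or longer. The ratio of the widest to the narrowest list had a median of 1.253 (quartiles 1.16 and 1.36). It was below 1.1 in 679 regions (13.2%) and 1.4 or more in 887 (17.2%), so that many members lay close to the limit. The plot of merged span against this ratio shows the members as the lower left part of one continuous cloud, with no gap at either limit.

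**Figure D1:**
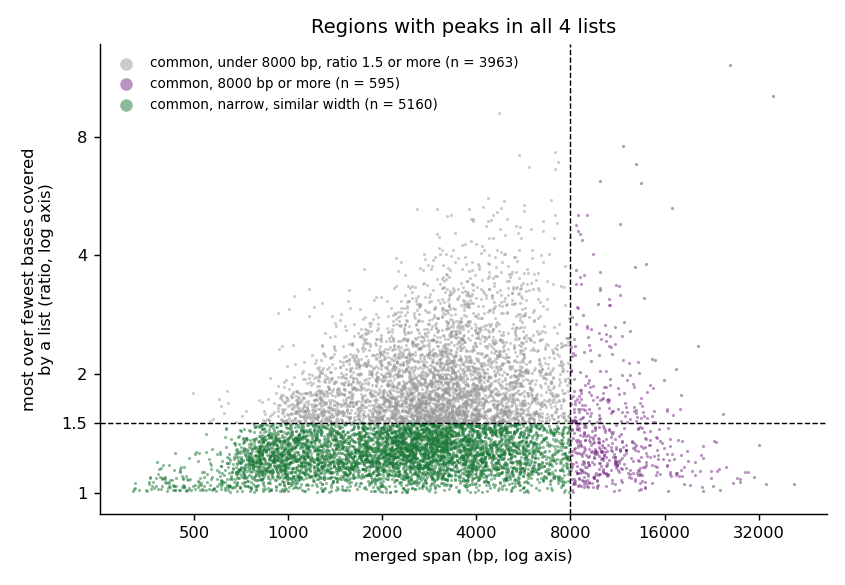
Ratio of the largest to the smallest number of bases covered by a list (vertical axis, log scale) against merged span in bp (horizontal axis, log scale) for the 9718 regions with peaks in all 4 lists, each point a region. Dashed lines mark the limits of 8000 bp and 1.5, and no gap separates the 5160 members (green) from the 3963 narrow uneven regions (grey) or the 595 regions of 8000 bp or more (purple).

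The regions nearest the limits show how little divides members from the rest. On scaffold 297, the region from 2437232 to 2443339 was just inside the ratio limit, with 4466, 3900, 5849 and 5427 covered bases. On scaffold 72, the region from 3256796 to 3258450 was just outside it, with 1176, 1434, 1098 and 1647 covered bases. The widest and narrowest lists differed in breed and limb in the former, and in limb alone in the latter. Just inside the span limit was also the widest member, on scaffold 64 from 3844749 to 3852728, of 7980 bp with 5954, 6308, 7883 and 7399 covered bases. Just outside it was a region of 8013 bp on scaffold 506 from 4923442 to 4931454. In the member on scaffold 64 the racing homer lists were the narrower ones, and each of them was split into 2 peaks there.

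Widths within the limit still differed by list. The median number of covered bases per region was 1868.5, 1942, 1924 and 2066.5 bp. The Indian fantail hindlimb list was the widest in 2365 regions (45.8%), against 1201 for the racing homer hindlimb, 983 for the Indian fantail forelimb and 611 (11.8%) for the racing homer forelimb, with 42 ties counted by list order. The narrowest list was the racing homer forelimb in 2124 regions (41.2%) and the Indian fantail hindlimb in 483 (9.36%). The order of the lists among the members thus has the Indian fantail hindlimb first, which is also the list with the most peaks, and the part of list size or depth in it was not tested.

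A single peak in every list was the usual form. It was found in 4544 members (88.1%, Wilson interval 87.1–88.9%), against 2984 of the 3963 other regions of all 4 lists under 8000 bp (75.3%, 73.9–76.6%). Splits bear on both the span and the covered bases, so this difference is not independent of the rule. Among the remaining members, 298 were split into several peaks in 1 list, 162 in 2 lists, 112 in 3 lists and 44 in all 4. Splits were found in 400 members in the racing homer forelimb, 295 in the racing homer hindlimb, 276 in the Indian fantail forelimb and 163 in the Indian fantail hindlimb.

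The 3 members with the smallest width ratio had nearly identical bounds in both breeds and limbs. On scaffold 429, from 2110190 to 2112307, the lists covered 2117, 2115, 2117 and 2118 bases. On scaffold 486, from 145611 to 147983, they covered 2368, 2366, 2370 and 2371 bases. On scaffold 699, from 1127657 to 1135562, they covered 7904, 7905, 7887 and 7897 bases, so that such agreement was found near the upper span limit too. All 3 were strong, with the highest-scoring peak at 2506, 2321, 1809.65 and 2738 on scaffold 429 and at exactly 3100 in every list for the other two. The narrowest member, on scaffold 799 from 173958 to 174275, covered 315, 316, 318 and 318 bases with much lower scores of 77.7, 109.9, 108 and 79.3. Equal widths were therefore found at strong and at weak regions.

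The rule used widths but not where peaks began and ended. Between the outer edges of the same region in any pair of lists, the median distance was 77 to 105 bp over the 6 pairs. It was smallest between the hindlimbs of both breeds (77 bp), and 86 bp between the forelimbs. Between the limbs of one breed it was 90 bp in the racing homer and 93 bp in the Indian fantail. Across both breed and limb it was 85 bp for racing homer hindlimb with Indian fantail forelimb, and 105 bp for the reverse pair. The overlap of both peaks made up 85.8 to 89.3% of their union in the median region. The limit on widths bears on this share, and its part was not tested. The pairs thus differed little, with the hindlimb pair closest.

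When the 4 lists were compared region by region, the same limb in the other breed had the closer edges more often than the other limb of the same breed. The sums of edge distances differed in 4667 members, and the same-limb pairs were closer in 2614 of them (56.0%, Wilson interval 54.6–57.4%). In the other regions of all 4 lists under 8000 bp this share was 61.2%. The members therefore leaned to the same side as regions of uneven width. The width limit of the rule bears on edge distances, so nothing is read from the lower share among the members. The hindlimb lists are also the 2 with the most peaks, so list size and limb cannot be told apart here.

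Across all 4 lists, the range of start positions had a median of 225.5 bp (quartiles 69 and 470), and that of end positions a median of 231 bp (82 and 476). Both ends lay within 50 bp in all 4 lists in 284 members (5.50%), and only 1 end did in 1594 (30.9%). In the latter, the other end ranged over a median of 216 bp. A peak could thus be fixed closely on one side in every sample and vary on the other.

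Closely shared edges made up a larger share of the edges next to short gaps. By count, the largest group of edges within 50 bp, 473, lay at gaps of 20000 bp or more. The span of the members was not held equal between the groups of gaps. For 9947 edges there was a further merged region beyond the edge on the same scaffold. Where that region lay less than 200 bp away, the edge range over the 4 lists had a median of 49 bp, and 50.1% of 860 edges were within 50 bp. From 200 to 500 bp the median was 45 bp (52.4% of 760 edges within 50 bp), and from 500 to 1000 bp it was 94 bp (44.8% of 688 edges). Beyond 1000 bp it was several times larger, at 352 bp from 1000 to 5000 bp (12.4% of 1906 edges within 50 bp), 297 bp from 5000 to 20000 bp (8.76% of 2431) and 227 bp from 20000 bp on (14.3% of 3302). A gap between merged regions is by construction a stretch where no list has a peak, so all 4 lists end somewhere before it. A peak of any list that reached across a gap would have joined the regions on both sides. Short gaps are therefore left only where no list extended further. The contrast between short and long gaps is thus not independent of the joining, whose part in it was not tested. The sequence in these gaps was not examined.

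**Figure D2:**
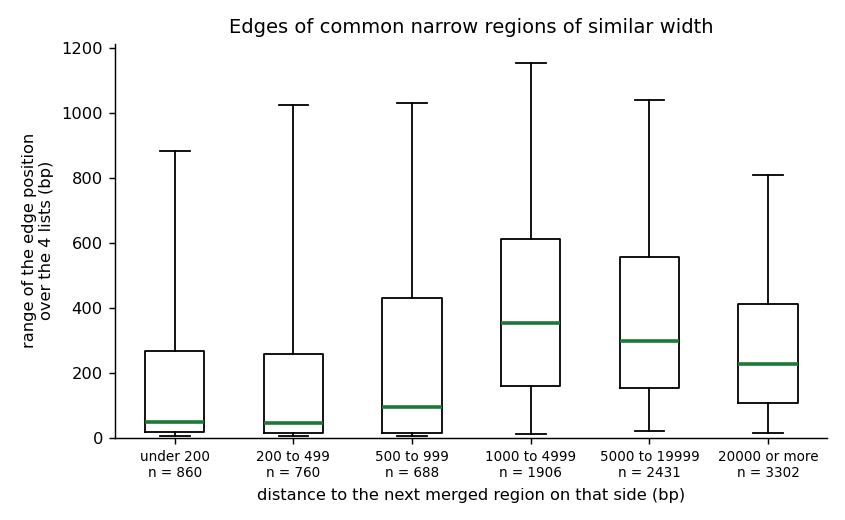
Range of the position of an edge over the 4 lists in bp (vertical axis) for edges of the 5160 regions, grouped by the distance in bp to the next merged region on that side (horizontal axis). The line in each box is the median, the box spans the quartiles, and the whiskers run from the 5th to the 95th percentile. Medians were 49, 45 and 94 bp up to a distance of 1000 bp and 227 to 352 bp beyond it. A peak of any list that bridged a gap would have joined the regions, so the groups are not independent of the joining.

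The 284 members with both ends within 50 bp were short, with a median span of 726.5 bp, although they reached 7906 bp. Ends have less room to differ in a short region, so the fixed limit of 50 bp itself favours short members. Of them, 185 (65.1%) had a merged region within 500 bp on at least 1 side and 62 (21.8%) on both sides. Among all members, 1458 (28.3%) had a neighbour within 500 bp on at least 1 side. The joining of peaks across gaps bears on this contrast too. The scores of the 284 were near those of all members, with median percentiles of 70.6, 75.7, 68.0 and 80.9, on the scale explained in the next paragraph. They were higher than in the narrowest 1032 members, from 318 to 1081 bp, where the medians were 47.0, 58.3, 44.4 and 65.5.

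Each peak carries a score from the peak caller, at least 50 in every list, with many of the strongest peaks at exactly 3100. Scores are comparable only within a list, so the highest score of a region in a list was turned into its percentile among all peaks of that list, where 50 is the list's median peak. The rule did not use scores. They come from the same peaks as the widths, however, and wider peaks tend to score higher. Regions with peaks in fewer lists ranked lower, and a region's highest peak is set against all single peaks of the list. Ranks above the list median therefore partly follow from the rule. Scores are thus not independent of the rule, and the following is a description.

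Members were stronger than the average peak in each list, but covered almost the whole range. The median score was 219, 247, 198 and 345, and the median percentile was 71.5, 74.4, 69.2 and 78.8. The region was above the list median in 75.9%, 80.6%, 72.3% and 87.4% of members. It was so in all 4 lists in 3108 members (60.2%), and below it in all 4 in 303 (5.87%). Regions of all 4 lists of 8000 bp or more had median percentiles near 95 in every list (95.3, 95.4, 94.7 and 95.6), and regions of 3 lists lay far lower, at 31.5, 37.0, 28.6 and 45.5. Narrow regions of uneven width lay between, at 54.4, 67.5, 52.9 and 74.2 where the hindlimb lists were wider. The members thus ranked between the broad regions and the uneven ones.

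**Figure D3:**
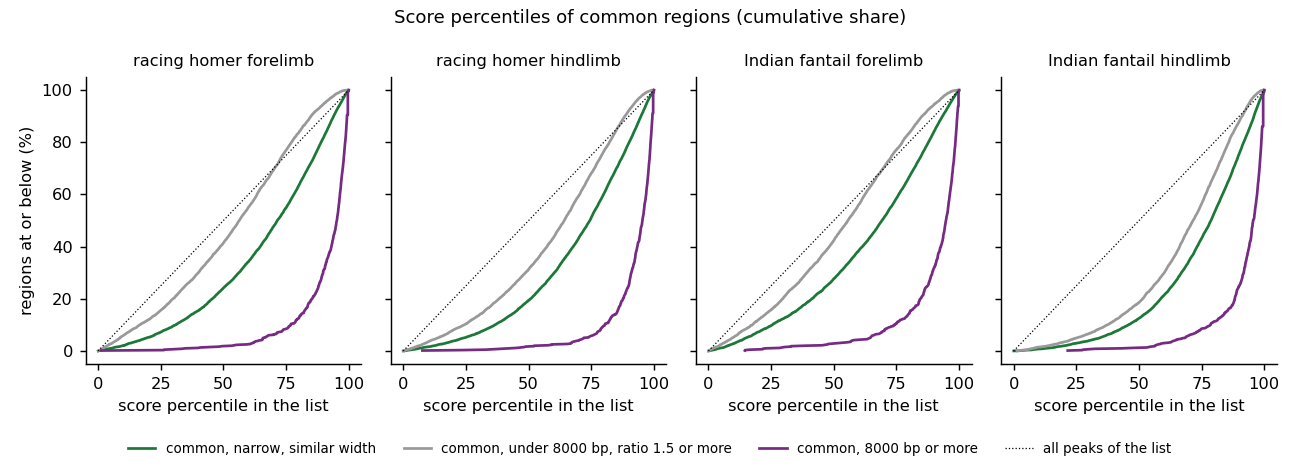
Cumulative share of regions in percent (vertical axis) at or below each score percentile (horizontal axis), a panel for each of the 4 lists. In every panel the common narrow regions of similar width lie to the right of the diagonal that stands for all peaks of the list, between the uneven regions under 8000 bp and the regions of 8000 bp or more.

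At the upper end, 23 members (0.446%) had a score of 3100 or more in all 4 lists and 96 (1.86%) in at least 1. Of the peaks at 3100 or more, 35 of 99, 38 of 96, 23 of 64 and 91 of 183 lay in members. Matching shares over all 9718 regions of all 4 lists are not given, so nothing about the members is read from these counts. The members with the highest lowest percentile were tied at exactly 3100 in all 4 lists, at percentiles of 99.7, 99.7, 99.8 and 99.6. The first of them in the order of scaffold names were a region of 7467 bp on scaffold 146 from 2289321 to 2296787, and 2 regions on scaffold 20, of 2312 bp from 3353002 to 3355313 and of 6682 bp from 3355832 to 3362513. The regions on scaffold 20 are neighbours, and the shorter of them covered 2310, 2311, 2305 and 2307 bases in the 4 lists.

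At the lower end, the weakest member in all 4 lists lay on scaffold 74 from 241060 to 242667, with scores of 52.2, 54.4, 63.2 and 57.5 and percentiles of 3.03, 5.67, 16.0 and 8.53. It was followed by a region on scaffold 110 from 468522 to 470413, with scores of 56.8, 64.9, 52.9 and 65.4, and by a region on scaffold 317 from 277296 to 277921, with scores of 54.4, 67.0, 60.7 and 69.8. All of these scores are close to the lowest score that the lists contain. The rule requires a peak in every list, so the presence of these weak regions in both breeds and limbs is not a finding.

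Width and score moved together among the members. In the narrowest 1032 members, from 318 to 1081 bp, the median percentile was 47.0, 58.3, 44.4 and 65.5. In the widest 1032, from 3993 to 7980 bp, it was 90.5, 90.6, 89.1 and 92.7. Edge ranges also differed, with medians of 41 bp at the start and 52 bp at the end in the narrowest 1032 against 554 and 562 bp in the widest. A short span leaves less room for edges to differ, so this contrast is partly set by the span. A single peak in every list was found in 99.9% of the former and 60.2% of the latter.

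The name of the set as constant in the limb bud was checked against the scores, which need not follow the widths. Within a member, the percentile ranged over the 4 lists by a median of 20.0 points. That was less than in the other regions of all 4 lists under 8000 bp (33.0 points) and more than in regions of 8000 bp or more (6.15 points), which have little room at the top of the scale. As the rule removed regions of unequal width, nothing is read from the former contrast. The range depended on the level. It was 30.8 points in the 132 members with a mean percentile under 25, 39.4 points in the 927 from 25 to 50, 27.2 points in the 1807 from 50 to 75, and 8.81 points in the 2294 from 75 up. A mean of 75 or more leaves little room for a range, so the small value there is partly set by the scale. The members were therefore of similar width by the rule, while their ranks differed between lists.

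Score percentiles were most alike between the same limb of both breeds. Over the 5160 members, Spearman's correlation of percentiles was 0.850 between the hindlimbs and 0.837 between the forelimbs. It was 0.809 between the limbs of the racing homer, 0.805 between those of the Indian fantail, and 0.805 and 0.788 for the pairs that differ in both. The median absolute difference was 6.23 points between hindlimbs and 7.55 between forelimbs, against 7.73 and 10.19 points between the limbs within the racing homer and within the Indian fantail. These are correlations across regions of single combined lists, given without a test. In the other regions of all 4 lists under 8000 bp they were lower for every pair, from 0.491 to 0.722.

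Region by region, percentiles of the same limb in the other breed were the closer ones in 2511 of 3840 members in which the sums differed (65.4%, Wilson interval 63.9–66.9%). In the other regions of all 4 lists under 8000 bp the share was 68.6%. With percentiles only over the peaks in regions of all 4 lists, an alternative chosen after seeing the data, these shares were 57.5% (2154 of 3746 members, Wilson interval 55.9–59.1%) and 59.6%. The same-limb pairs were thus the closer ones more often on both scales, but by less on the second, and list size and limb cannot be told apart here either.

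Differences between limbs that recur in both breeds were counted next, at 20 percentile points or more in each breed. The hindlimb was higher in 314 members (6.09%, Wilson interval 5.47–6.77%), beside 9.34% of all 9718 regions of all 4 lists, and the forelimb in 36 (0.698%), beside 1.61%. Between breeds, in both limbs, the Indian fantail was higher in 80 (1.55%), beside 2.62%, and the racing homer in 50 (0.969%), beside 0.998%. Because the rule removed regions of unequal width, nothing is read from the lower shares among the members.

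The order of the limbs in these counts turned with the scale. Each hindlimb list is longer than the forelimb list of the same breed, and the share of its peaks outside the regions of all 4 lists, which lie lower on the scale, was larger, at 41.8% against 31.7% in the racing homer and 52.9% against 29.5% in the Indian fantail. When percentiles were taken only over the peaks that lie in regions of all 4 lists, the hindlimb was higher in 112 members (2.17%, Wilson interval 1.81–2.61%, beside 4.35% of all 9718) and the forelimb in 201 (3.90%, 3.40–4.46%, beside 4.95%). The Indian fantail was then higher in 59 (1.14%, beside 1.89%) and the racing homer in 113 (2.19%, beside 2.12%), so this order turned too. On both scales, 106 members were called higher in the hindlimb, 32 in the forelimb, 38 higher in the Indian fantail and 37 higher in the racing homer. Matching counts over all 9718 regions are not given, so nothing about the members is read from these. No excess of one limb or breed over the other can be read from these lists, while single regions can be followed on both scales.

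**Figure D4:**
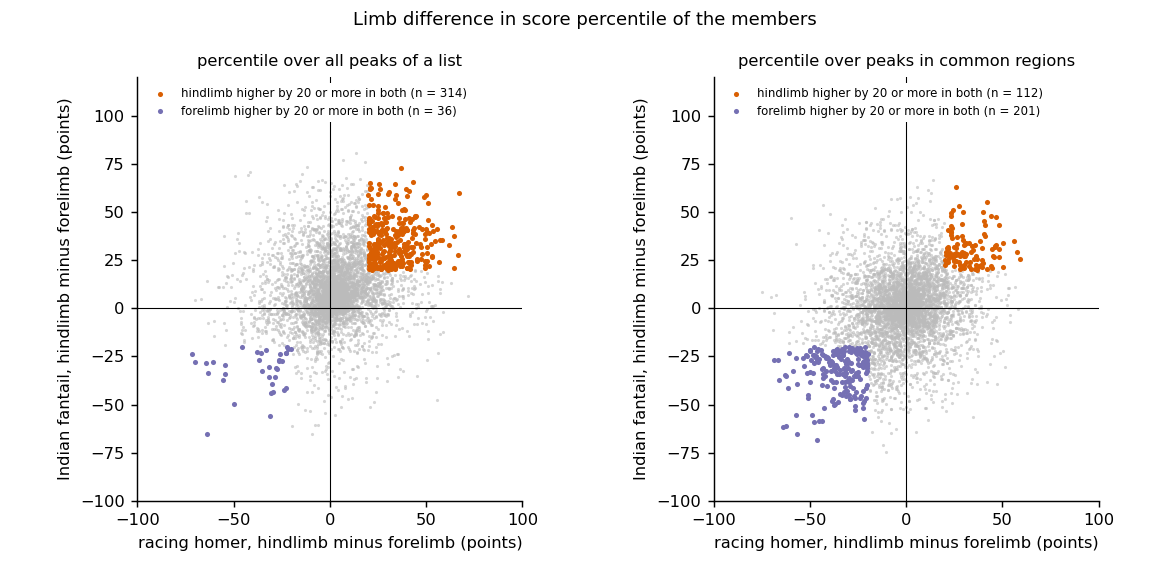
Difference in score percentile, hindlimb minus forelimb, in percentile points in the Indian fantail (vertical axis) against the racing homer (horizontal axis), each point one of the 5160 members, with percentiles over all peaks of a list on the left and over the peaks in regions of all 4 lists on the right. Coloured points differ by 20 points or more in the same direction in both breeds: 314 with the hindlimb higher and 36 with the forelimb higher on the left, against 112 and 201 on the right.

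The median difference between hindlimb and forelimb was 1.64 points in the racing homer and 6.95 points in the Indian fantail, and −0.53 and 0.32 points on the second scale. Across the 5160 members, the limb difference in one breed and that in the other had a Pearson correlation of 0.209, and 0.228 on the second scale. The breed difference in the forelimb and that in the hindlimb had a correlation of 0.032, and 0.059 on the second scale. No list is used in both differences that were correlated. Among the members, the limb differences in this scatter are thus only weakly alike between breeds, and most members lie near the centre. On the scale of whole lists, the correlation of limb differences was 0.335 in the other regions of all 4 lists under 8000 bp. It was 0.330 in those of 8000 bp or more and 0.293 in all 9718. Because the rule removed regions of unequal width, nothing is read from the lower value among the members.

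Among members higher in the hindlimb, those with the largest smaller difference over both breeds lay on scaffolds 53, 256 and 123. From 2707751 to 2708717 on scaffold 53, the scores were 50.9 and 201 in the forelimb and hindlimb of the racing homer, and 63.4 and 311 in the Indian fantail. The forelimb peaks were near the lowest score of their lists in both breeds, while the hindlimb peaks were at percentiles of 68.3 and 76.1. From 1823701 to 1826212 on scaffold 256, the corresponding scores were 52.5 and 137, then 62.3 and 242. From 1176512 to 1178483 on scaffold 123, they were 64.0 and 193, then 57.4 and 235. In these 3 members both hindlimb percentiles were above both forelimb percentiles, and the limb differences were at least 20 points in both breeds on the second scale too, for example 48.1 and 43.4 points on scaffold 53.

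Among members higher in the forelimb, the first was on scaffold 413 from 1366325 to 1369512, with scores of 218 in the forelimb and 56.1 in the hindlimb of the racing homer, and 254 and 60.5 in the Indian fantail. Its hindlimb minus forelimb difference in percentile was −63.7 points for the racing homer and −65.2 points for the Indian fantail. On scaffold 114, from 2997244 to 2999297, the scores were 141 and 55.1, then 126 and 52.5. On scaffold 64, from 3873363 to 3875236, they were 205 and 61.8, then 94.1 and 51.1, so that the forelimbs of the breeds also differed. The hindlimb peaks were near the floor in both breeds at each of the 3. On scaffold 413 the covered bases were 2463, 2253, 2757 and 1963, so this difference in score occurred at a width ratio of 1.404.

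Differences between breeds that recurred in both limbs were found on scaffold 123 from 8061713 to 8062552, where scores in the forelimb and hindlimb were 56.9 and 50.6 in the racing homer and 145 and 156 in the Indian fantail. On scaffold 209, from 41654 to 43741, they were 60.2 and 66.4, then 123 and 199.82. On scaffold 604, from 1126351 to 1127034, they were 52.4 and 84.7, then 103 and 245. At each of these 3 members both Indian fantail percentiles were above both racing homer percentiles, although on scaffold 604 the hindlimb percentile was also the higher in each breed. In the opposite direction, the region on scaffold 79 from 8901927 to 8904668 had scores of 122 and 184 in the racing homer and 52.5 and 53.6 in the Indian fantail. On scaffold 46, from 240968 to 244194, they were 226 and 199, then 76.7 and 80.1, and on scaffold 230, from 1912880 to 1916136, they were 354 and 251, then 101 and 104. All 6 of these breed differences were at least 20 points in both limbs on the second scale as well. The first of the latter group lies on the scaffold of *Pitx1*, but outside the window from 6.7 to 7 Mb that is described below. The study's genetic mapping on that scaffold was not limited to this window.

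Members with a limb difference in score were not of one size. On the scale of whole lists, those higher in the hindlimb had a median span of 1276 bp, below the 2293.5 bp of all members, and those higher in the forelimb one of 2777.5 bp. On the second scale the medians were 2022.5 and 2740 bp. On the scale of whole lists, the hindlimb was higher in 12.9% of the narrowest 1032 members and in 1.65% of the widest. By mean percentile, it was higher in 8.33% of the 132 members under 25, 16.1% of those from 25 to 50, 8.19% of those from 50 to 75 and 0.262% of those from 75 up. Near either end of the scale a difference of 20 points has little room, and the part of this limit in these shares was not tested. Matching shares on the second scale, or for regions outside the set, are not given for these groups of span and mean percentile. No lean of narrow or low-ranking members to the hindlimb is therefore read from them.

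Members were spread over the assembly. Of 837 scaffolds with a merged region, 613 had at least 1 member, and scaffold 7 had the most, 142 of its 663 regions. Over the 61 scaffolds with at least 100 merged regions, the share of members had a median of 18.7%. It ran from 12.2% on scaffold 642 (15 of 123, Wilson interval 7.53–19.1%) to 31.0% on scaffold 194 (31 of 100, 22.8–40.6%). These are the extremes of 61 shares, and no scaffold was tested against the others.

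Distances from members to other acetylated regions were measured along the scaffolds. The nearest merged region of any kind was at a median distance of 2292.5 bp, against 3720 bp for merged regions that were not members. A merged region within 200 bp was found for 820 members (15.9%), against 10.8% of the other regions, while 1979 members (38.4%) had none within 5000 bp. The nearest other member was at a median of 28343 bp (quartiles 5720 and 83046 bp). Among the regions directly next to a member, 23.3% were members, against 18.5% next to other regions. Most of the other regions in these comparisons had peaks in fewer than 4 lists. Values for the other regions of all 4 lists alone are not given, so nothing particular to the members is read from these comparisons. Of the members, 3109 had no member directly beside them, 704 pairs and 139 triplets occurred, and the remaining runs were of 4 to 8 members. Members made up 19.5% of all merged regions, and the counts expected from that share were not computed. Nothing is therefore read from the counts of runs.

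The longest run of consecutive members lay on scaffold 70, the scaffold that carries *Tbx5* and *Tbx3*. Both encode T-box transcription factors. *Tbx5* is expressed in the forelimb bud and is required for its outgrowth, while *Tbx3* is expressed along the margins of both limb buds and takes part in patterning the limb. The run held 8 members from 776417 to 809152, in 32.7 kb, with gaps of 8 to 923 bp between them. It occupies the end of the study's window from 0.64 to 0.8 Mb where *Tbx3* lies on the study's map of the locus, and continues past the window. All 7 regions of that window with peaks in all 4 lists were members, out of 15 merged regions, and they were the first 7 of the run. Of all regions with peaks in all 4 lists 53.1% were members, and of all merged regions 19.5% were. The window holds too few regions for anything to be read from its share. The run was the longest of all and was picked by its length, and the gene names are those the study gives for the window.

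**Figure D5:**
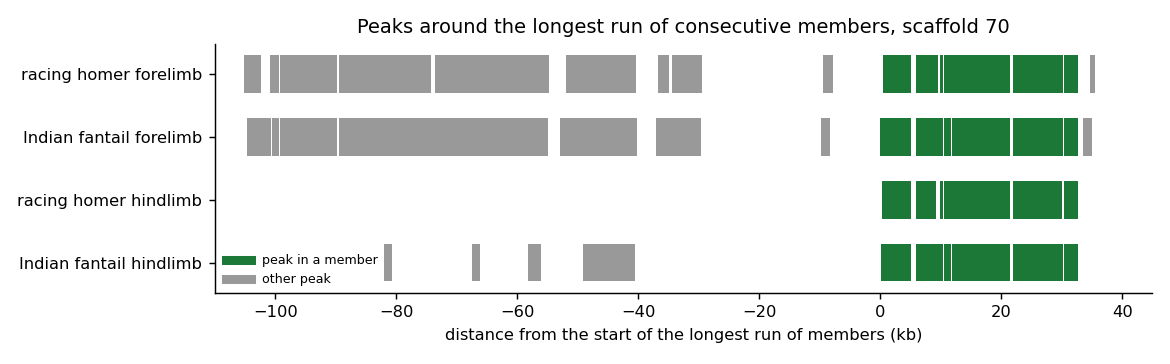
Extent of the peaks of each list around the longest run of consecutive members on scaffold 70, with distance in kb from the start of the run (horizontal axis) and a row for each breed and limb. Bars of the 8 members (green) begin and end at similar distances in all 4 rows, apart from the start of the first, which ranges over 445 bp, with the second member split into 2 peaks in both racing homer lists, and the other peaks before the run (grey) lie mainly in the forelimb rows.

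Peaks in the run had similar bounds in all samples, except at the start of the first member, and scores that differed widely between members. Starts ranged over 445 bp in the first member, which is more than the members' median of 225.5 bp, and over 7 to 130 bp in the other 7. Ends ranged over 6 to 90 bp. The first member, of 5055 bp from 776417 to 781471, had scores of 2163, 1487, 1424 and 1828. The fourth, of 6197 bp from 788179 to 794375, had 2329, 1359, 1633 and 1329, with percentiles of 99.0, 97.5, 98.5 and 96.4. The next one, of 3526 bp from 794384 to 797909, had 2008, 979, 1669 and 1919.95. These 3 were among the strongest few percent of peaks in every list, wing and leg alike.

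The other members of the run were weaker in every list. The second, of 4480 bp from 782395 to 786874, had scores of 510.05, 251, 343 and 777, and percentiles of 89.1, 74.8, 83.6 and 92.0. The hindlimb was the higher limb there in the Indian fantail and the lower one in the racing homer. The seventh, of 6958 bp from 799659 to 806616, had scores of 496, 576, 520 and 1210.3, the last of them from the Indian fantail hindlimb. The third, of 1129 bp from 786949 to 788077, and the sixth, of 1315 bp from 798308 to 799622, had scores between 193 and 484. The eighth, of 2349 bp from 806804 to 809152, was the weakest, with 189, 166, 85.9 and 225. Width ratios in the run were 1.01 to 1.18, below the median of all members, and no member of the run differed by 20 points between limbs in both breeds or between breeds in both limbs.

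The acetylated sequence just before the run was of another kind. In the 110 kb before its start lay 8 merged regions, none with peaks in all 4 lists. All 8 had peaks in both forelimb lists, none in the racing homer hindlimb list and 2 in the Indian fantail hindlimb list. This is the part of the window in which the study's map places *Tbx5*. Regions shared by all 4 samples thus directly followed regions found in both forelimbs. This stretch was chosen for description after its values were seen.

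The window of *Pitx1*, which encodes a homeodomain transcription factor that specifies hindlimb identity, held 2 members. Of 26 merged regions from 6.7 to 7 Mb on scaffold 79, 4 had peaks in all 4 lists and 2 were members, with 1 of the others broad and 1 of uneven width. Of all merged regions 19.5% were members, and of those with peaks in all 4 lists 53.1% were. The window holds too few regions for anything to be read from its share. The interval deleted in the Indian fantail lies in this window, and 9 consecutive merged regions from 6721947 to 6761539, all inside it, had peaks in racing homer lists only. These 9 could not meet the rule, and the 2 members were among the other 17 regions. The member from 6717303 to 6718943 had scores of 114, 198, 74.4 and 220.5 and covered 1368, 1497, 1305 and 1641 bases. Both hindlimb percentiles were above both forelimb percentiles, and the hindlimb was the higher by 20.1 points in the racing homer and 41.0 points in the Indian fantail, or by 16.0 and 22.2 points on the second scale. It thus passed 20 points in both breeds on the scale of whole lists only. The member from 6781443 to 6783538 had scores of 133, 110, 95.2 and 219 and covered 1742, 1722, 1676 and 2096 bases. There the hindlimb was the higher limb in the Indian fantail and the lower one in the racing homer.

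Other long runs, also chosen after their values were seen, differed in form. A run of 7 members on scaffold 1241, from 33112 to 57593, was as compact as that on scaffold 70, at 24.5 kb. Another of 7 on scaffold 121, from 1134387 to 1513988, extended over 379.6 kb, so that its members were neighbours only in the order of merged regions. At the ends of scaffolds, 26 members began within the first 50 bp, where a peak may continue beyond the assembled sequence.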

How the data were processed

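Peaks of H3K27ac ChIP-seq were taken from 4 deposited BED lists, a single list for each of 2 breeds and 2 limbs of the pigeon (*Columba livia*). The submitters' processing notes name CASAVA, Bowtie2 2.2.3, SAMtools, MACS 1.4.2 and MACS2 2.0.10.20130915, without the step each was used for. The genome build, the use of the inputs as control and the way the 2 replicates were combined are not given in the sources used here. The score that the authors deposited with each peak is at least 50 in every list. Its scale was not stated. Scores are printed as deposited, and comparisons between lists rest on ranks within a list. Peak coordinates, which the authors deposited in BED form with starts counted from 0, are printed counted from 1. A further 2 deposited tables, of the authors' own comparison of the breeds' hindlimbs by the bdgdiff function of MACS2, hold log10 likelihood ratios and were not used.

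Merged regions, covered bases, edges and mid-rank score percentiles were computed with Python 3.11.15, numpy 2.4.6, pandas 2.3.3 and scipy 1.17.1. Plots were made in matplotlib 3.10.9. Merging, width ratios and percentiles were tested on simulated data. A region's score in a list is that of its highest-scoring peak, and its edges are the outer edges of all its peaks in that list. No read counts are in the lists, so the depth is unknown, and 95% Wilson intervals cover counting error only. Alternatives were other limits on overlap, span, ratio and score, lists of equal size, leaving out a list, another measure of width, edge or score, and a second score scale over the peaks in regions of all 4 lists.

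The set of regions and the lists of windows were chosen with earlier results of these data known. Regions named are the 3 strongest, 3 weakest and 3 of smallest width ratio, the widest and the narrowest, the 3 with the largest smaller difference in each of the 4 score directions, those nearest each limit, the members in the windows of *Pitx1* and *Tbx5*, and the longest run. A gene table of another assembly was not used, so no sequence or gene is given for a region.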

Additional observations from a re-analysis of the deposited data

How the results depend on the processing

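The number of members stayed within 1.5 times of 5160 under the other overlaps, lists of equal size, the other span limits, a ratio limit of 2, width from the first to the last base and each list left out. It was 2926 with peaks at or above the median score of their list and 2543 with the widest list less than 25% above the narrowest. The share among the regions of all lists used, 53.1%, was 49.1% with peaks joined up to 200 bp apart, 57.4% with peaks at or above the list median, 54.4% with lists of equal size, 26.2% with this stricter ratio limit, 78.8% with a ratio below 2, and 42.5% and 56.6% with a span under 4000 and 16000 bp. It was 65.1%, 60.6%, 60.8% and 67.0% without the racing homer forelimb, racing homer hindlimb, Indian fantail forelimb and Indian fantail hindlimb list. The shares of members higher in the hindlimb, forelimb, Indian fantail and racing homer were 2.17%, 3.90%, 1.14% and 2.19% with percentiles over the peaks in regions of all 4 lists, 16.4%, 2.83%, 6.36% and 3.91% at 10 points or more, and 1.98%, 0.194%, 0.368% and 0.155% at 30 points or more. With the stricter ratio limit the hindlimb and Indian fantail shares were 5.23% and 1.06%, and with a span under 4000 bp the hindlimb share was 7.19%. A width-weighted mean score and leaving out regions at 3100 or more kept all 4 shares within their Wilson intervals. Shares over all 9718 regions are given above at 20 points only, so nothing about the members is read from those at 10 or 30 points. These alternatives differ by construction in which regions or peaks enter, and the cause of each shift was not tested beyond that. The median span ran from 1873.5 to 2868 bp, the share with a single peak in every list from 83.8% to 95.01%, and the median edge distances from 71 to 110 bp over the pairs. The share of members with closer scores in the same limb, 65.4%, was 57.5% on the second score scale. No paired analysis was possible because each list combines its 2 replicates, and for the same reason no replicate could be left out. The unknown depth limits every absence of a peak: a region missing from a list may lie below the lowest score.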
